A study of Mus musculus with 36 samples.

Results

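The collagen genes of the postnatal mouse kidney were described over 4 genotypes and 3 ages. A gene was taken as a collagen when its symbol in the deposited table had the form Col, a number, a and a number, so that each entry is the gene of 1 collagen alpha chain. Of the 18049 genes listed, 42 met this rule. They comprise 11 chains of fibrillar collagens, the 6 chains of the basement membrane collagen type IV, and 25 others: 8 FACIT chains (collagens that sit on the surface of fibrils), 6 type VI chains of beaded filaments, 4 membrane-spanning chains, 2 multiplexins, 2 short-chain network formers, the anchoring fibril chain Col7a1, and Col26a1 and Col28a1. All 42 passed the filter on low counts in every comparison.

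Whole C57BL/6 kidneys, flash frozen, were taken at 3 ages, postnatal day 0 (P0), day 3 (P3) and day 12 (P12), and their total RNA was sequenced. Each age had 3 Digenic mice (Pkhd1-/-;Pkd1RC/RC, with both mutations homozygous), 3 Pkd1-RC/RC mice, 3 Pkhd1-/- mice and 3 WT mice, which gives 12 groups and 36 libraries, 1 per mouse. Pkd1 is the polycystin-1 gene, mutated in the dominant form of polycystic kidney disease, and its RC allele changes a single residue and lowers its function. Pkhd1 is mutated in the recessive form and codes for fibrocystin, and the comparisons ask how the genes of both forms act together. Both mutations are germline, so every cell type of the kidney carries them. Litters are not given, so p-values measure only the spread between these mice.

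Collagen chains wind around each other into trimers, which then build larger structures. Types I, III and V form the fibrils of the interstitium, the tissue between tubules, and accumulate where a kidney scars. Type IV forms the sheet-like network of basement membranes. The network of alpha1 and alpha2 chains (Col4a1, Col4a2) is found in nearly all basement membranes from early development, whereas the network of alpha3, alpha4 and alpha5 chains (Col4a3, Col4a4, Col4a5) takes its place in the glomerular basement membrane as the glomerulus matures, and its loss causes Alport syndrome. Podocytes make that network in the glomerulus, and some tubular cells also make it. The alpha6 chain (Col4a6) pairs with alpha5 in Bowman's capsule and some tubules.

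The type IV genes lie head to head in 3 pairs, and the regions of their starts are shown because each pair shares 1 stretch of DNA between its genes. In mm10, Col4a4 (chr1:82448423-82586849, minus strand) and Col4a3 (chr1:82586921-82722059, plus strand) lie 71 bases apart, and the window given for Col4a4 covers both starts. Col4a1 (chr8:11198423-11312826, minus strand) and Col4a2 (chr8:11312805-11449287, plus strand) overlap by 22 bases at their starts. Col4a6 (chrX:141165403-141474076, minus strand) and Col4a5 (chrX:141475385-141689234, plus strand) lie 1308 bases apart. Each window runs 5′ to 3′ on the strand of its gene, from 250 bases before to 50 bases after the RefSeq start (GRCm38.p6). Capitals mark the GC box GGGCGG, the CCAAT box CCAAT and the TATA box TATAAA on either strand, and no marked motif touches another.
Col4a4, chr1:82586800-82587099, minus strand: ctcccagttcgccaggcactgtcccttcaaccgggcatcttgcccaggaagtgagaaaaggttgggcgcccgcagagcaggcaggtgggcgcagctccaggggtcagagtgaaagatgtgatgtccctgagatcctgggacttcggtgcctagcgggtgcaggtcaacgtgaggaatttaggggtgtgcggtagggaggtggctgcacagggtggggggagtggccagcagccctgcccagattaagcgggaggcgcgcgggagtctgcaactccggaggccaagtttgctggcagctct
Col4a1, chr8:11312777-11313076, minus strand: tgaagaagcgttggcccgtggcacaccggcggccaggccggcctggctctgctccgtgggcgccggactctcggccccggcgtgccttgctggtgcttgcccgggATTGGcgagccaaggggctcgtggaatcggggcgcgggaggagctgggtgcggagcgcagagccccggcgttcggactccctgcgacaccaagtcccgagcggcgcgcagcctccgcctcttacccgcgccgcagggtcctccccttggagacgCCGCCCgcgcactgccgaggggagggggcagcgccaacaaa
Col4a5, chrX:141475169-141475468, plus strand: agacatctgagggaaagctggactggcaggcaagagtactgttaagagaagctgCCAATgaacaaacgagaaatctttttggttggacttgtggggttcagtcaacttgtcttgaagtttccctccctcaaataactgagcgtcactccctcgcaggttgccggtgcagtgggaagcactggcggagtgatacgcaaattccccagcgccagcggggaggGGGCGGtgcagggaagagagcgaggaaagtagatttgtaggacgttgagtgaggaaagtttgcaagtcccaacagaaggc
Col4a6, chrX:141474027-141474326, minus strand: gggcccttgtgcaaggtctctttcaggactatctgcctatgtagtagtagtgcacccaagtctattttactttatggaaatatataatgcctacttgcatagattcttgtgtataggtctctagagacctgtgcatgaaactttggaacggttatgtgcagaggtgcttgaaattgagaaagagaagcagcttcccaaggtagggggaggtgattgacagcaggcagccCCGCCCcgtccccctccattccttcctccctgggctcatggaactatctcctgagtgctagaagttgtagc
The Col4a4 window has none of these 3 motifs. The windows of Col4a1 and Col4a5 hold 1 GC box and 1 CCAAT box each, and the Col4a6 window holds 1 GC box. Of all 32851 RefSeq promoter windows of this length, 35.7% hold a GC box, 37.4% a CCAAT box and 13.6% a TATA box. RefSeq windows were matched for 33 of the 42 collagen genes.

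Library totals ran from 51411240 to 80789299 counts. Pkhd1 lay between 5.90 and 32.8 CPM (counts scaled to a common library total) in the libraries that carry its knockout, against 61.6 to 249 CPM in the others; a count per gene does not report the RC allele. Markers of the adrenal gland summed to more than 20 CPM in 9 libraries (41.4 to 493 CPM, against at most 7.62 CPM in the rest). Digenic P12 replicates 2 and 3 are among these, so leaving out all 9 leaves Digenic P12 with replicate 1 alone. That mouse stood apart in another way: its skin and squamous epithelium markers summed to 157 CPM, against 13.3 to 23.8 CPM in WT P12 mice. The column header of this same Digenic P12 mouse reads P3, against P12 in its sample label, so its age is the less certain one. Ureteric tip markers summed to 45.7 to 66.4 CPM in Digenic P12 mice, this one included, and 122 to 137 CPM in Digenic P3 mice. Nephron progenitor markers summed to 14.5 to 22.2 CPM in the same Digenic P12 mice and 34.4 to 43.4 CPM in Digenic P3 mice, also without overlap. Proximal tubule markers of these groups overlapped (2347 to 2971 CPM and 2014 to 2601 CPM). Without this mouse Col17a1 lost its call in Digenic against WT at P12, and the other collagens called there kept theirs. The header of Pkd1-RC/RC P12 replicate 2 reads Pkhd1, against Pkd1-RC/RC in its label, while its Pkhd1 count lay in the range of the libraries without the knockout. Calls of members given with their values that were lost without the 9 libraries with adrenal transcripts are named beside the comparison.

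Collagens took 1.08% to 1.86% of all counts of a library, with a median of 1.38%. Levels are given in RPKM, counts per kilobase of gene length on the CPM scale, so that genes can be set side by side. Over the 36 libraries, 6 genes had a median of at least 100 RPKM, 11 lay between 10 and 100, 14 between 1 and 10, and 11 under 1. Col4a1 had the highest median at 426 RPKM (254 to 602), followed by Col4a2 at 266 RPKM (180.0 to 382). Next came the type III chain Col3a1 at 229.6 RPKM (169 to 333), the type I chains Col1a1 at 192 RPKM (124 to 347) and Col1a2 at 122 RPKM (95.4 to 184), and Col18a1, whose product is a basement membrane proteoglycan, at 131 RPKM (102 to 185). The ranges of neighbours in this order overlap. The lowest gene was the type VI chain Col6a5 at 0.0629 RPKM (0.00753 to 0.437), with as few as 4 counts in a library. Exons of 12 members overlap those of another gene in GENCODE M21, among them 563 bases of Col4a3 with the antisense gene C430014B12Rik. No source used here says whether counting used strand, so reads of such pairs may not be separable.

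In WT kidneys 4 of the 6 type IV chains rose between P0 and P12, and 5 of the 6 chains of types II, IX and XI, known from cartilage, fell. Col4a3 and Col4a4 had the largest rises among the 42 genes between P0 and P12, and Col9a1, Col2a1 and Col9a3 the largest falls. In WT P12 against WT P0, 7 collagens were higher and 13 lower at an adjusted p under 0.05 (edgeR quasi-likelihood test, Benjamini-Hochberg adjustment over all genes). That is 47.6% of the members, against 49.8% of all 18049 genes, a share near the background. By class, 4 of 6 type IV chains were higher and 0 lower, 1 of 11 fibrillar chains was higher and 2 lower, and 2 of the 25 others were higher and 11 lower, where 26.2% of all genes were higher and 23.6% lower. The median log2 change was 1.12 over the type IV chains, -0.36 over the fibrillar chains and -0.56 over the others, against 0.02 over all genes.

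Col4a3 had 4.43, 6.28 and 3.40 RPKM at P0, 8.23, 6.58 and 12.1 RPKM at P3, and 38.4, 45.9 and 53.8 RPKM at P12 in WT mice. Every P12 mouse lay above every younger one, and the log2 change of P12 over P0 was 3.29 ± 0.309 (SE; edgeR adjusted p = 2.08e-09). Its neighbour Col4a4 had 8.60, 10.6 and 6.11 RPKM at P0, 12.4, 9.71 and 15.9 RPKM at P3, and 44.5, 48.4 and 50.3 RPKM at P12, with a log2 change of 2.50 ± 0.253 (adjusted p = 6.20e-09). Both genes of this pair were highest in all 3 P12 mice. Col4a5 had 29.0, 24.9 and 26.2 RPKM at P0, 32.1, 23.5 and 38.5 RPKM at P3, and 54.1, 53.7 and 59.1 RPKM at P12, with a log2 change of 1.06 ± 0.203 (adjusted p = 8.57e-05). Col4a6 had 2.11, 1.74 and 1.87 RPKM at P0, 2.58, 2.37 and 3.47 RPKM at P3, and 3.50, 4.66 and 4.84 RPKM at P12, with a log2 change of 1.19 ± 0.215 (adjusted p = 4.26e-05). For all 4 chains WT P12 and WT P0 did not overlap, and each kept the call in every alternative tried.

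The alpha1 and alpha2 chains did not pass the same test. Col4a1 had 458, 437 and 335 RPKM at P0, 369.7, 371 and 421 RPKM at P3, and 539, 478 and 506 RPKM at P12 in WT mice, with a log2 change of P12 over P0 of 0.31 ± 0.180 (adjusted p = 0.159). Col4a2 had 287, 292 and 208 RPKM at P0, 214, 230.3 and 241 RPKM at P3, and 333, 310.5 and 319 RPKM at P12, with a log2 change of 0.29 ± 0.161 (adjusted p = 0.134). In both genes the P12 mice lay above the P0 mice without overlap, by a smaller margin than in the other 4 chains. The ratio of summed Col4a3 and Col4a4 RPKM to summed Col4a1 and Col4a2 RPKM came to 0.0194 ± 0.00330 in WT P0 mice, 0.0349 ± 0.00763 in WT P3 mice and 0.114 ± 0.0164 in WT P12 mice (SD, n = 3 each). A two-sided exact permutation test of P12 against P0 gave p = 0.1, the smallest that 3 mice against 3 allow, and 0.3 after adjustment over the 12 class sums and ratios tested. The summed RPKM of the 6 type IV chains was 982 ± 36.9 at WT P12 and 714 ± 116 at WT P0, with the same p. Of 9 podocyte markers, Clic5 and Ptpro were among those higher and Wt1 among those lower at P12, and the list summed to 1331 to 1437 CPM at WT P12 and 1102 to 1492 CPM at WT P0; its part in these values was not tested. In bulk RNA, fewer cells of a type and less RNA per cell cannot be told apart.

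**Figure D1:**
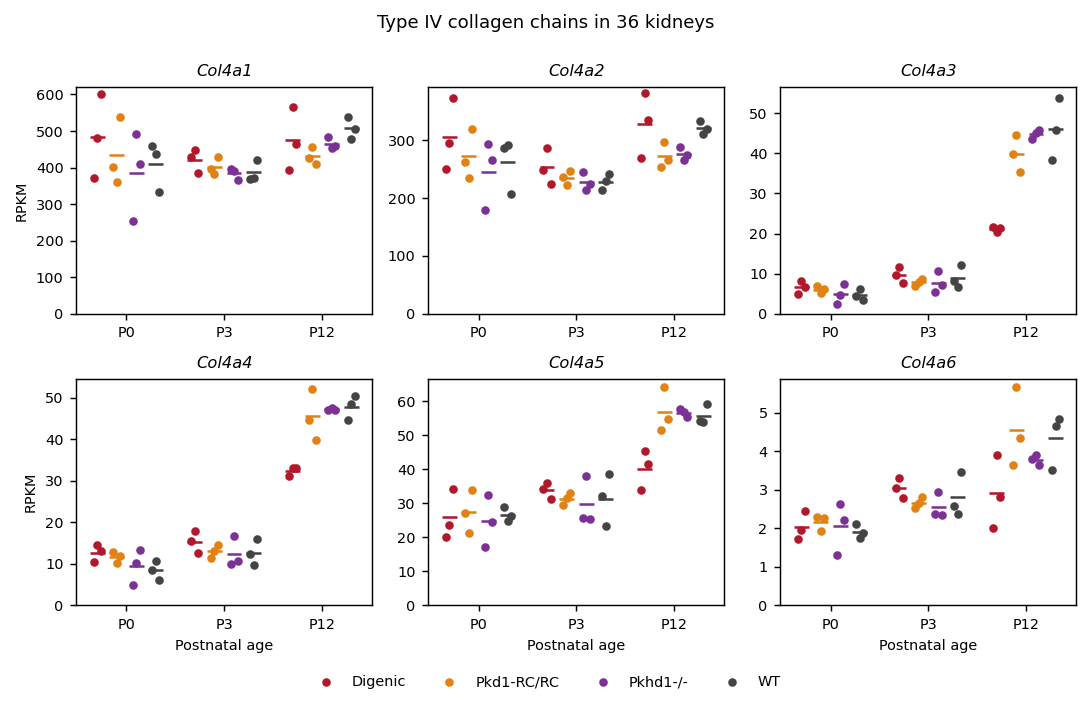
RPKM of the 6 type IV chains in each of the 36 kidneys, by postnatal age and genotype; points are mice and lines are group means of 3. Col4a3 and Col4a4 are highest at P12, where the 3 Digenic mice (20.4 to 21.7 RPKM for Col4a3) lie below the 3 WT mice (38.4 to 53.8 RPKM), while Col4a1 and Col4a2 overlap between Digenic and WT mice.

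Types II, IX and XI are the fibril and fibril-surface collagens known from cartilage. Col2a1 had 8.18, 3.64 and 6.05 RPKM at P0, 6.11, 7.30 and 5.67 RPKM at P3, and 0.254, 0.173 and 0.179 RPKM at P12 in WT mice, a log2 change of P12 over P0 of -4.87 ± 0.594 (adjusted p = 2.64e-07). Col9a1 had 1.95, 1.18 and 1.52 RPKM at P0, 1.38, 1.59 and 1.37 RPKM at P3, and 0.0496, 0.0528 and 0.0524 RPKM at P12, a log2 change of -4.90 ± 0.518 (adjusted p = 1.26e-08). Col9a3 had 1.15, 0.631 and 1.19 RPKM at P0, 1.18, 1.12 and 0.659 RPKM at P3, and 0.0490, 0.0736 and 0.0427 RPKM at P12, a log2 change of -4.17 ± 0.416 (adjusted p = 4.39e-09). In these 3 genes P0 and P3 overlapped, and every P12 mouse lay far below both. Exons of Col9a3 overlap 234 bases of Tcfl5 on the other strand. The partner chains Col9a2 and Col11a2 also fell, by 1.20 and 3.13 on the log2 scale, and Col11a1 did not pass (log2 change -0.43 ± 0.187). Acan and Sox9, cartilage markers that are no collagens, were lower at P12, Comp was higher, and the 5 measured markers summed to 14.3 to 17.6 CPM at WT P12 and 26.9 to 40.9 CPM at WT P0. The part of cartilage in these falls was not tested.

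**Figure D2:**
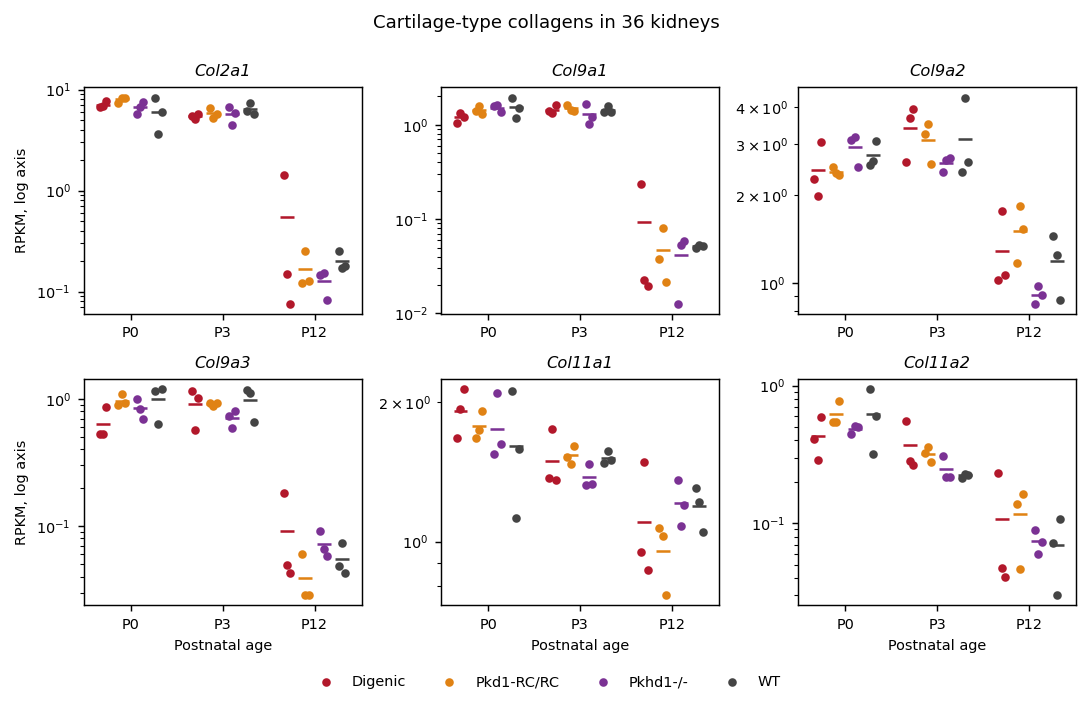
RPKM on a log axis of Col2a1, the 3 type IX chains and the 2 type XI chains in each of the 36 kidneys, by age and genotype; points are mice and lines are group means of 3. Col2a1 lies between 3.64 and 8.34 RPKM in all kidneys of P0 and P3, and at P12 at or below 0.254 RPKM in all but Digenic replicate 1, which has 1.43 RPKM.

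Collagens of other types also changed with age. Col27a1, a fibrillar chain with a short triple helix, had 0.702, 0.757 and 0.511 RPKM at P0, 1.42, 1.38 and 2.42 RPKM at P3, and 3.03, 1.90 and 3.21 RPKM at P12 in WT mice, and rose by 2.05 ± 0.328 on the log2 scale at P12 over P0 (adjusted p = 9.35e-06). The membrane collagen Col23a1 had 4.70, 3.42 and 3.82 RPKM at P0, 4.38, 5.85 and 5.68 RPKM at P3, and 1.66, 1.61 and 1.52 RPKM at P12, a log2 change of -1.31 ± 0.204 (adjusted p = 5.32e-06). In both genes P12 did not overlap P0, and Col23a1 was lower in every P12 mouse than in any younger one. The multiplexin Col15a1, a basement membrane proteoglycan, had 54.4, 55.9 and 51.3 RPKM at P0, 50.1, 53.1 and 60.3 RPKM at P3, and 109, 87.6 and 92.0 RPKM at P12, and was higher at P12 than at P3 by 0.82 ± 0.213 (adjusted p = 0.0034). Col28a1 was the remaining gene that was higher at P12 than at P0. Col8a2, Col12a1, Col13a1, Col25a1, Col6a1, Col6a2 and Col6a6 completed the 13 that were lower. Without the libraries with adrenal transcripts, Col6a1 and Col6a2 missed the threshold, at log2 changes of -0.50 and -0.60 (adjusted p = 0.0779 and 0.0759). The call of Col6a6 rested on WT P0 replicate 1, with a log2 change of -2.07 with that mouse and -0.94, not called, without it.

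Shorter intervals showed when these shifts took place. At WT P3 against WT P0, 5 collagens were higher and 3 lower (of all genes, 12.8% were higher and 11.9% lower, 24.7% together), and at WT P12 against WT P3, 8 were higher and 11 lower (of all genes, 18.6% and 17.0%, 35.5% together). Of the type IV chains, 1 of 6 was higher in the earlier interval and 5 of 6 in the later one. Col8a2, a short-chain collagen of sheet-like networks, had 7.77, 4.58 and 6.00 RPKM at P0, 9.41, 11.6 and 8.82 RPKM at P3, and 3.58, 3.26 and 2.75 RPKM at P12 in WT mice, with a log2 change of 0.70 ± 0.193 at P3 over P0 (adjusted p = 0.00926) and -1.64 ± 0.197 at P12 over P3 (adjusted p = 2.47e-07). Col13a1, a membrane collagen, had 1.5031, 1.66 and 1.35 RPKM at P0, 2.16, 2.40 and 2.62 RPKM at P3, and 0.970, 0.972 and 0.99972 RPKM at P12, with a log2 change of 0.67 ± 0.185 at P3 over P0 (adjusted p = 0.00961). Both genes were highest in the 3 P3 mice and lowest in the 3 P12 mice. Col11a2 had 0.943, 0.320 and 0.603 RPKM at P0, 0.215, 0.229 and 0.226 RPKM at P3, and 0.0718, 0.0300 and 0.107 RPKM at P12 and fell in both intervals. Col6a1, a chain of the microfibrils that link cells to fibrils, had 117, 127 and 77.8 RPKM at P0, 63.2, 92.3 and 68.1 RPKM at P3, and 72.5, 76.5 and 72.1 RPKM at P12. Its partner Col6a2 had 58.7, 61.9 and 36.5 RPKM at P0, 29.9, 43.2 and 30.2 RPKM at P3, and 34.1, 33.8 and 31.3 RPKM at P12. Both type VI chains were lower at P3 than at P0 at adjusted p = 0.0385 and 0.0409, with WT P3 replicate 2 inside the P0 range. Without the libraries with adrenal transcripts, the P3 over P0 calls of Col6a1, Col6a2 and Col11a2 were lost, at log2 changes of -0.44, -0.50 and -1.03 (adjusted p = 0.185, 0.207 and 0.112).

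The abundant interstitial chains did not pass the test between ages. Col1a1 had 347, 262 and 189.9 RPKM at P0, 158, 305 and 155 RPKM at P3, and 207, 217 and 184 RPKM at P12 in WT mice. Col1a2 had 184, 147 and 124 RPKM at P0, 111, 154 and 111 RPKM at P3, and 146, 149 and 138 RPKM at P12. Col3a1 had 301, 235 and 217 RPKM at P0, 199, 251 and 205 RPKM at P3, and 284, 272 and 263 RPKM at P12. P12 and P0 overlapped in all 3 genes, Col3a1 lay higher in every P12 mouse than in any P3 mouse, and WT P0 replicate 1 and WT P3 replicate 2 were the highest of their groups for each. The log2 changes of P12 over P0 were -0.39 ± 0.254, -0.07 ± 0.176 and 0.12 ± 0.181 for Col1a1, Col1a2 and Col3a1 (lowest adjusted p = 0.203). The ratio of Col3a1 to Col1a1 was 1.35 ± 0.0911 at WT P12 and 0.970 ± 0.152 at WT P0, without overlap (two-sided exact permutation p = 0.1, adjusted 0.3 over 12 tests).

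Enzymes, chaperones and binding proteins that handle collagen were read from a list of 53 genes, of which 47 were listed in the table. In WT P12 against WT P0, 22 were higher and 10 lower, where 26.2% of all genes were higher and 23.6% lower, with a median log2 change of 0.31 against 0.02 over all genes. Leprel1, a prolyl 3-hydroxylase that modifies type IV among others, averaged 68.8 RPKM at WT P12 and 18.3 RPKM at WT P0, a log2 change of 1.91. The galactosyltransferase Colgalt2, the fibril-binding proteoglycan Fmod and the procollagen protease Tll1 rose by 1.67, 1.31 and 1.97. Lox, which crosslinks fibrils, averaged 16.9 RPKM at WT P12 and 55.7 RPKM at WT P0, a log2 change of -1.72. The prolyl 4-hydroxylase subunits P4ha3 and P4hb fell by 2.49 and 0.54, and the chaperone Fkbp10 fell by 0.81. Of 32 basement membrane partners, 12 were higher and 4 lower, against the same shares of all genes. The nephritis antigen Tinag rose by 1.76, Egfl6 by 1.58 and Smoc2 by 1.23, the laminin chain Lama3 rose too, and the laminin chains Lama1, Lama4 and Lamc1 fell by 1.02, 0.55 and 0.57.

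At P12 Digenic kidneys had less Col4a3, Col4a4, Col4a5 and Col27a1 and more Col12a1, Col8a1, Col6a4 and Col18a1 than WT kidneys, while the abundant type I, type III and alpha1 and alpha2 type IV chains did not pass the test. In all, 6 collagens were higher and 4 lower, which is 23.8% of the members against 23.0% of all 18002 genes tested, a share near the background. By class, 3 of 6 type IV chains and 1 of 11 fibrillar chains were lower with 0 of either higher, and 6 of the 25 others were higher with 0 lower, where 12.0% of all genes were higher and 11.0% lower. The median log2 change was -0.52 over the type IV chains, 0.01 over the fibrillar chains and 0.12 over the others, against -0.01 over all genes.

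Col4a3 was at 21.7, 20.4 and 21.3 RPKM in Digenic mice at P12, against 38.4, 45.9 and 53.8 RPKM in WT mice. The 3 Digenic mice were close to each other and all below the lowest WT mouse, with a log2 change of -1.13 ± 0.116 (adjusted p = 6.43e-05). Col4a4 was at 31.1, 33.0 and 33.1 RPKM in Digenic mice, against 44.5, 48.4 and 50.3 RPKM in WT mice, with a log2 change of -0.56 ± 0.0939 (adjusted p = 0.00126). Col4a5 was at 34.0, 45.2 and 41.4 RPKM in Digenic mice, against 54.1, 53.7 and 59.1 RPKM in WT mice, with a log2 change of -0.47 ± 0.107 (adjusted p = 0.00761). No Digenic mouse overlapped the WT mice in any of the 3 genes. The call of Col4a3 held in every alternative tried, and those of Col4a4 and Col4a5 were lost only when all 36 libraries were fitted together. With Digenic replicate 1 as the only Digenic mouse, the log2 changes were -1.07, -0.60 and -0.70 for Col4a3, Col4a4 and Col4a5, and without that mouse they were -1.15, -0.53 and -0.36.

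The other type IV chains overlapped between the genotypes. Col4a6 had 1.9979, 3.91 and 2.82 RPKM in Digenic mice and 3.50, 4.66 and 4.84 RPKM in WT mice, with a log2 change of -0.58 ± 0.221 (adjusted p = 0.0814). Its call turned on the setting: it passed as lower in DESeq2 (adjusted p = 0.0308), with the replicate number as a block (adjusted p = 0.0164), without Digenic replicate 2 (-0.83, adjusted p = 0.00952) and with Digenic replicate 1 as the only Digenic mouse (-1.10, adjusted p = 0.0119), and without that last mouse the log2 change was -0.37. Col4a1 had 394, 566 and 465 RPKM in Digenic mice, against 539, 478 and 506 RPKM in WT mice. Col4a2 had 269, 382 and 336 RPKM in Digenic mice, against 333, 310.5 and 319 RPKM in WT mice. For Col4a1 and Col4a2, Digenic replicate 1 was the lowest and replicate 2 the highest of the 6 mice. The ratio of Col4a3 and Col4a4 to Col4a1 and Col4a2 was 0.0680 ± 0.0117 in Digenic mice and 0.114 ± 0.0164 in WT mice (SD, n = 3 each), without overlap; the two-sided exact permutation test gave p = 0.1, the smallest possible, and 0.3 after adjustment over 12 tests.

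Cell type markers moved beside these chains. Of 9 podocyte markers, Clic5 and Nphs1 were among those lower and 0 were higher in Digenic mice, and the list summed to 910.4 to 1255 CPM in Digenic mice, against 1331 to 1437 CPM in WT mice. Proximal tubule markers summed to 2347 to 2971 CPM in Digenic mice and 4782 to 5812 CPM in WT mice, with 4 of 5 lower. Endothelial markers summed to 730.3 to 994 CPM in Digenic mice and 1059.9 to 1192 CPM in WT mice, with 5 of 6 lower. Macrophage markers summed to 263 to 708 CPM in Digenic mice and 114 to 138 CPM in WT mice, with 5 of 5 higher. In Pkd1-RC/RC and Pkhd1-/- mice podocyte markers summed to 1180 to 1298 and 1257 to 1292 CPM, both below the WT mice. Their proximal tubule markers summed to 4247 to 4690 and 4785 to 5448 CPM, and their endothelial markers to 929 to 1064 and 975 to 1019 CPM. Their macrophage markers summed to 138 to 149 and 114 to 123 CPM. The part of these cell types in the collagen values was not tested.

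Col12a1, a FACIT chain of dense connective tissue, had the smallest adjusted p among the collagens. It stood at 17.6, 16.6 and 17.3 RPKM in Digenic mice at P12, against 5.37, 4.84 and 3.81 RPKM in WT mice. The lowest Digenic mouse was more than 3 times the highest WT mouse, and the log2 change was 1.87 ± 0.141 (adjusted p = 1.09e-05), lying between 1.75 and 2.004 when any 1 of the 6 mice was left out. Col8a1, a short-chain collagen of vessel walls, was at 7.20, 3.51 and 4.47 RPKM in Digenic mice, against 1.75, 2.0974 and 2.05 RPKM in WT mice, with a log2 change of 1.36 ± 0.236 (adjusted p = 0.00187). Its groups did not overlap, Digenic replicate 1 was the highest mouse, and the log2 change without that mouse was 1.02. Both rises passed in every alternative tried.

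Col6a4, a type VI chain, was at 0.793, 0.880 and 1.87 RPKM in Digenic mice at P12, against 0.556, 0.471 and 0.393 RPKM in WT mice, with a log2 change of 1.32 ± 0.290 (adjusted p = 0.0066). Digenic replicate 3 was the highest of them, and exons of Col6a4 overlap those of Gm47575 and Gm36993 on the other strand. Col18a1 was at 149.6, 183 and 156 RPKM in Digenic mice, against 136, 125 and 125 RPKM in WT mice, with a log2 change of 0.34 ± 0.0891 (adjusted p = 0.0155). Col27a1 was at 1.17, 1.30 and 1.07 RPKM in Digenic mice, against 3.03, 1.90 and 3.21 RPKM in WT mice, with a log2 change of -1.20 ± 0.264 (adjusted p = 0.00842). The groups did not overlap in any of these 3 genes. When all 36 libraries were fitted together, the call of Col18a1 was lost (edgeR adjusted p = 0.0970), and those of Col6a4 and Col27a1 held. With Digenic replicate 1 as the only Digenic mouse none of the 3 passed, at log2 changes of 0.76, 0.23 and -1.20.

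Col7a1 and Col17a1, which anchor epithelia to the tissue below them, were the remaining genes that rose, and their calls were the least stable. Col7a1 was at 1.57, 2.32 and 2.09 RPKM in Digenic mice, against 1.61, 0.971 and 1.43 RPKM in WT mice, and the groups overlapped (log2 change 0.57 ± 0.185, adjusted p = 0.0419; 0.24 and 0.578 with Digenic replicate 1 as the only Digenic mouse). Col17a1, named after its values were seen, was at 0.746, 0.132 and 0.150 RPKM in Digenic mice, against 0.0895, 0.0929 and 0.110 RPKM in WT mice (log2 change 1.81 ± 0.537, adjusted p = 0.0294). Digenic replicate 1, the mouse with the high skin markers, set that value: without it the log2 change was 0.53 (adjusted p = 0.191). The same mouse had 1.43 RPKM of Col2a1, against 0.149 and 0.0763 RPKM in the other Digenic mice and 0.254, 0.173 and 0.179 RPKM in WT mice.

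**Figure D3:**
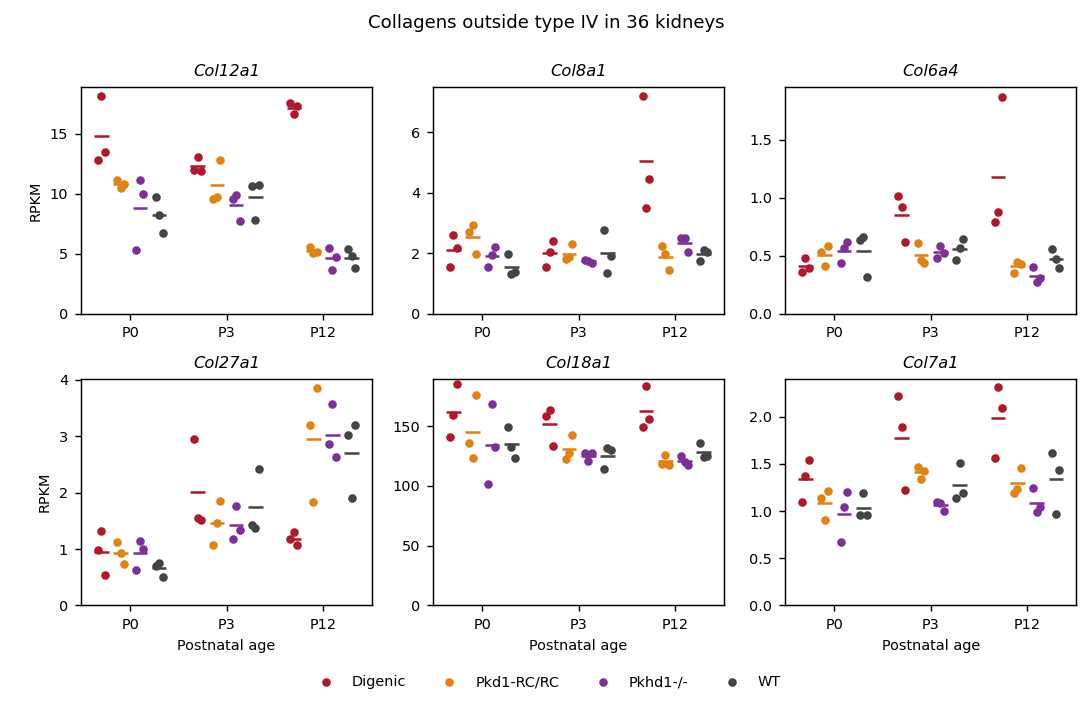
RPKM of Col12a1, Col8a1, Col6a4, Col27a1, Col18a1 and Col7a1 in each of the 36 kidneys, by age and genotype; points are mice and lines are group means of 3. At P12 Col12a1 lies between 16.6 and 17.6 RPKM in Digenic mice and between 3.81 and 5.37 RPKM in WT mice.

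The interstitial fibrillar chains did not pass the test between Digenic and WT kidneys at P12, and their values turned on Digenic replicates 1 and 2. Col1a1 had 131, 273 and 211 RPKM in Digenic mice, against 207, 217 and 184 RPKM in WT mice, a log2 change of 0.01 ± 0.208 (adjusted p = 0.971). Col1a2 had 95.4, 172 and 138 RPKM in Digenic mice, against 146, 149 and 138 RPKM in WT mice, a log2 change of -0.10 ± 0.165 (adjusted p = 0.719). Col3a1 had 169, 333 and 232 RPKM in Digenic mice, against 284, 272 and 263 RPKM in WT mice, a log2 change of -0.16 ± 0.182 (adjusted p = 0.568). In all 3 genes Digenic replicate 1 was the lowest and replicate 2 the highest of the 6 mice. The summed RPKM of the 11 fibrillar chains was 643 ± 203 in Digenic mice and 676 ± 32.2 in WT mice (SD, n = 3 each; two-sided exact permutation p = 0.8). With Digenic replicate 1 as the only Digenic mouse, all 3 passed as lower, at log2 changes of -0.62 for Col1a1, -0.58 for Col1a2 and -0.68 for Col3a1 (edgeR adjusted p = 0.0287, 0.0206 and 0.00982). Without that mouse they were 0.25, 0.10 and 0.047, and none passed. Leaving out Digenic replicate 2 instead gave -0.23, -0.30 and -0.44, and Col3a1 then passed as lower (edgeR adjusted p = 0.0314). Stromal and fibroblast markers summed to 426 to 779 CPM in Digenic mice and 739 to 789 CPM in WT mice, with Lum, Meis2 and Pdgfrb lower, and myofibroblast markers to 1279 to 2322 CPM in Digenic mice and 1467 to 1606 CPM in WT mice, with Acta2 and Fap higher in Digenic mice. In Pkd1-RC/RC and Pkhd1-/- mice the stromal sums were 651 to 683 and 648 to 715 CPM, both below the WT mice. Their myofibroblast sums were 1148 to 1409 and 1266 to 1540 CPM.

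**Figure D4:**
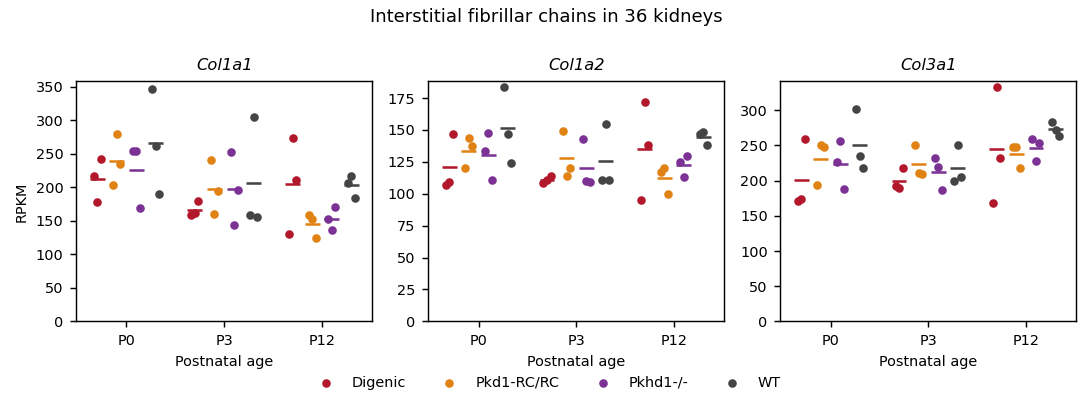
RPKM of Col1a1, Col1a2 and Col3a1 in each of the 36 kidneys, by age and genotype; points are mice and lines are group means of 3. At P12 the Digenic mice spread from 131 to 273 RPKM for Col1a1, around the WT mice at 184 to 217 RPKM.

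Of the 47 measured collagen handling genes, 9 were higher and 12 lower in Digenic than in WT mice at P12, where 12.0% of all genes were higher and 11.0% lower, with a median log2 change of -0.07 against -0.01 over all genes. The crosslinking enzymes Loxl1 and Lox averaged 52.7 and 31.5 RPKM in Digenic mice, against 29.7 and 16.9 RPKM in WT mice, log2 changes of 0.83 and 0.89. The procollagen proteases Adamts2 and Adamts3 rose by 0.54 and 1.22. Plod2, a lysyl hydroxylase, fell by 0.71 with 14.8 RPKM in Digenic mice and 24.2 RPKM in WT mice, and Leprel1, the collagen-binding proteoglycan Lum and the protease Adamts14 fell by 0.42, 1.80 and 0.64. Of 32 basement membrane partners, 7 were higher and 5 lower, against the same shares of all genes. The integrin chain Itgb4 rose by 0.89, Tinagl1 by 0.52 and the integrin chain Itga3 by 0.41. Tinag, Egfl6, the integrin chain Itga8 and the laminin chain Lamc3 fell by 0.66, 0.69, 1.21 and 1.54.

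Digenic kidneys also differed from each single mutant at P12. Against Pkd1-RC/RC, 10 collagens were higher and 5 lower (of all genes, 10.3% were higher and 9.24% lower, 19.5% together), and against Pkhd1-/-, 7 were higher and 4 lower (of all genes, 15.5% and 12.6%, 28.2% together). These comparisons share the Digenic mice with the one against WT. By their Xist and Y-linked transcripts, every Pkd1-RC/RC mouse of P12 was male, while the Digenic, Pkhd1-/- and WT groups of P12 held both sexes. Sex is therefore not balanced in the comparison with Pkd1-RC/RC or in the interaction at P12. Col12a1 was at 17.6, 16.6 and 17.3 RPKM in Digenic mice, against 5.54, 5.09 and 5.12 RPKM in Pkd1-RC/RC and 5.50, 3.69 and 4.74 RPKM in Pkhd1-/- mice, with log2 changes of 1.70 ± 0.140 and 1.88 ± 0.141 (adjusted p = 5.04e-05 and 7.96e-06). Col4a3 was at 21.7, 20.4 and 21.3 RPKM in Digenic mice, against 39.8, 44.4 and 35.2 RPKM in Pkd1-RC/RC and 43.4, 45.0 and 45.7 RPKM in Pkhd1-/- mice, with log2 changes of -0.92 ± 0.116 and -1.08 ± 0.116 (adjusted p = 0.000524 and 5.41e-05). Neither gene overlapped between Digenic and either single mutant.

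Col4a4 was at 44.7, 52.1 and 39.9 RPKM in Pkd1-RC/RC and 47.1, 47.4 and 47.1 RPKM in Pkhd1-/- mice, above the Digenic mice by log2 changes of -0.50 ± 0.0939 and -0.54 ± 0.0939, Digenic over single mutant. Col4a5 was at 51.6, 64.2 and 54.7 RPKM in Pkd1-RC/RC and 57.5, 56.8 and 55.4 RPKM in Pkhd1-/- mice, with Digenic log2 changes of -0.50 ± 0.107 and -0.49 ± 0.107. Col27a1 was at 3.19, 1.83 and 3.85 RPKM in Pkd1-RC/RC and 2.86, 3.58 and 2.64 RPKM in Pkhd1-/- mice, with Digenic log2 changes of -1.33 ± 0.265 and -1.36 ± 0.265. All 6 of these comparisons passed the test, with no overlap. With all 36 libraries in 1 fit, Col4a4 and Col4a5 lost the call against both single mutants. The edgeR adjusted p was then 0.197 and 0.108 against Pkd1-RC/RC, and 0.114 and 0.0844 against Pkhd1-/-. Col8a1 was at 2.24, 1.98 and 1.44 RPKM in Pkd1-RC/RC and 2.52, 2.50 and 2.04 RPKM in Pkhd1-/- mice, with Digenic log2 changes of 1.41 ± 0.237 and 1.10 ± 0.235. Col6a4 was at 0.348, 0.450 and 0.432 RPKM in Pkd1-RC/RC and 0.399, 0.272 and 0.308 RPKM in Pkhd1-/- mice, with Digenic log2 changes of 1.52 ± 0.293 and 1.86 ± 0.297. Col18a1 was at 119, 126 and 117 RPKM in Pkd1-RC/RC and 125, 120.3 and 117 RPKM in Pkhd1-/- mice, with Digenic log2 changes of 0.43 ± 0.0891 and 0.43 ± 0.0891. These 3 genes were higher in every Digenic mouse than in any single mutant, and all 6 comparisons passed. Without the libraries with adrenal transcripts, which leaves Digenic replicate 1 alone, the calls of Col18a1 and Col27a1 were lost against both single mutants. The log2 changes were then 0.32 and -1.32 against Pkd1-RC/RC (adjusted p = 0.0981 and 0.130) and 0.29 and -1.45 against Pkhd1-/- (adjusted p = 0.150 and 0.109).

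The type VI chains Col6a1 and Col6a2 passed against Pkd1-RC/RC but not against WT. Col6a1 was at 61.6, 83.1 and 84.6 RPKM in Digenic mice, against 53.3, 53.6 and 49.6 RPKM in Pkd1-RC/RC, 67.5, 63.4 and 69.5 RPKM in Pkhd1-/- and 72.5, 76.5 and 72.1 RPKM in WT mice. Col6a2 was at 27.0, 38.2 and 36.4 RPKM in Digenic mice, against 23.9, 20.5 and 18.6 RPKM in Pkd1-RC/RC, 32.1, 31.3 and 32.9 RPKM in Pkhd1-/- and 34.1, 33.8 and 31.3 RPKM in WT mice. Pkd1-RC/RC mice were the lowest of all 4 genotypes in both genes, without overlap, and the Digenic over Pkd1-RC/RC log2 changes were 0.54 ± 0.106 and 0.68 ± 0.122 (adjusted p = 0.00451 and 0.00292). Both calls were lost with Digenic replicate 1 as the only Digenic mouse, at 0.25 and 0.38 (adjusted p = 0.145 and 0.0977). Col7a1 was at 1.57, 2.32 and 2.09 RPKM in Digenic mice, against 1.24, 0.991 and 1.04 RPKM in Pkhd1-/- mice, with no overlap and a log2 change of 0.87 ± 0.186 (adjusted p = 0.00446), and missed the threshold without the libraries with adrenal transcripts, at 0.50 (adjusted p = 0.258).

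An interaction term asked whether the Digenic change differed from the sum of both single changes on the log2 scale. At P12, 7 collagens had a positive term and 4 a negative one, 26.2% of the members against 8.57% of all genes (5.38% positive, 3.19% negative). Col12a1 had a term of 1.71 ± 0.195 (adjusted p = 0.00172), Col6a4 one of 2.06 ± 0.414 (adjusted p = 0.0135), and Col6a1 one of 0.69 ± 0.150 (adjusted p = 0.0174). Col22a1, a FACIT chain of tissue junctions, had a term of 2.39 ± 0.546 (adjusted p = 0.0208) at low levels: 0.103, 0.151 and 0.140 RPKM in Digenic, 0.0206, 0.0362 and 0.0435 RPKM in Pkd1-RC/RC, 0.0491, 0.0475 and 0.0508 RPKM in Pkhd1-/- and 0.0971, 0.0308 and 0.0687 RPKM in WT mice. The negative terms were -0.88 ± 0.162 for Col4a3 (adjusted p = 0.0101), -1.49 ± 0.369 for Col27a1 (adjusted p = 0.0337), -0.48 ± 0.132 for Col4a4 (adjusted p = 0.0425) and -0.53 ± 0.151 for Col4a5 (adjusted p = 0.0486). Col12a1 and Col6a4 passed in every alternative tried. Col4a3 passed with any 1 mouse left out, and was lost without the libraries with adrenal transcripts (-0.81, adjusted p = 0.0550) and with all 36 libraries in 1 fit (adjusted p = 0.249). Without the libraries with adrenal transcripts Col6a1, Col22a1, Col4a4 and Col27a1 were lost too, at 0.41, 2.08, -0.53 and -1.58 (adjusted p = 0.0932, 0.125, 0.125 and 0.182). Leaving out 1 mouse at a time gave between 3 and 13 calls, against 11 with all 12 mice.

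**Figure D5:**
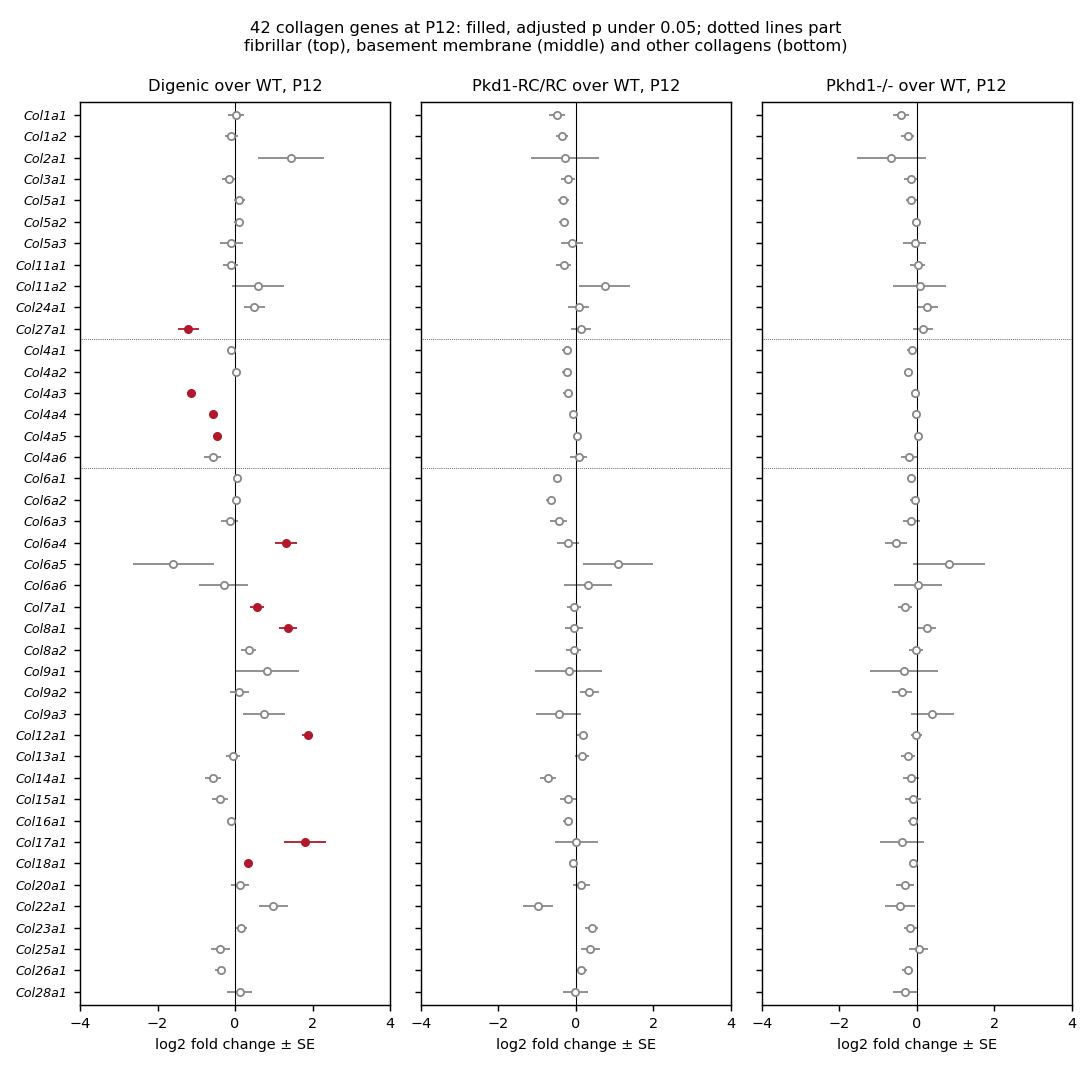
Log2 fold change ± SE of the 42 collagens against WT at P12 in Digenic, Pkd1-RC/RC and Pkhd1-/- mice; filled red points passed the test at an adjusted p under 0.05. Passing points appear only for Digenic mice, with Col12a1 at 1.87 and Col4a3 at -1.13.

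Neither single mutant had a collagen past the threshold against WT at P12. In Pkd1-RC/RC mice 0 of 42 passed in edgeR (0.267% of all genes), and 9 had an unadjusted p under 0.05 (1343 of all 18002 genes). DESeq2 called 3 lower: Col6a2, Col6a1 and the FACIT chain Col14a1. Their edgeR log2 changes were -0.65 ± 0.122, -0.49 ± 0.106 and -0.72 ± 0.210 (adjusted p = 0.0525, 0.103 and 0.392). In Pkhd1-/- mice 0 of 42 passed in edgeR (0.0333% of all genes), 0 had an unadjusted p under 0.05 (793 of all 18002 genes), and DESeq2 called 0. Col4a1 had 425, 457 and 409.8 RPKM in Pkd1-RC/RC and 484, 453 and 459 RPKM in Pkhd1-/- mice. Col4a2 had 253, 298 and 267 RPKM in Pkd1-RC/RC and 288, 266 and 275 RPKM in Pkhd1-/- mice. Col4a6 had 3.65, 5.66 and 4.35 RPKM in Pkd1-RC/RC and 3.79, 3.91 and 3.64 RPKM in Pkhd1-/- mice. None of the 3 passed. Col1a1 had 159, 153 and 124 RPKM in Pkd1-RC/RC and 152, 136 and 171 RPKM in Pkhd1-/- mice. Col1a2 had 117, 120.3 and 100.02 RPKM in Pkd1-RC/RC and 125, 113 and 129.9 RPKM in Pkhd1-/- mice. Col3a1 had 247, 248 and 219 RPKM in Pkd1-RC/RC and 259, 227 and 253 RPKM in Pkhd1-/- mice. All 3 fibrillar chains were lower in every single-mutant mouse than in any WT mouse, and none passed the test.

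At P0 no collagen passed the edgeR test in any of the 6 comparisons between genotypes when the 12 libraries of that age were fitted. With all 36 libraries in 1 fit, edgeR called Col12a1 and Col13a1 higher in Digenic than in WT mice, at 0.84 and 0.70 (adjusted p = 0.00693 and 0.0182). Against Pkhd1-/- mice that fit called Col12a1 higher and Col23a1 lower, at 0.75 and -0.74 (adjusted p = 0.0201 and 0.0263). Without WT P0 replicate 2, Col6a5 passed as lower against WT (edgeR adjusted p = 0.0482). With the 12 libraries, Digenic against WT had 0 of 42 (0.671% of all genes), with 8 at an unadjusted p under 0.05, and DESeq2 called Col12a1 and Col6a5. Pkd1-RC/RC against WT had 0 (0.0166% of all genes; 3 unadjusted, DESeq2 0), Pkhd1-/- against WT 0 (0.0111%; 0 unadjusted, DESeq2 0), Digenic against Pkd1-RC/RC 0 (0.0388%; 4 unadjusted, DESeq2 0), Digenic against Pkhd1-/- 0 (0.244%; 5 unadjusted, DESeq2 2) and the interaction 0 (0.00554%; 2 unadjusted, DESeq2 0). Over all 18035 genes, the unadjusted counts of these 6 comparisons, in the same order, were 2950, 1880, 849, 909, 2688 and 1067. Col12a1 was at 12.8, 18.1 and 13.5 RPKM in Digenic mice, against 9.76, 8.24 and 6.75 RPKM in WT mice, already without overlap, with a log2 change of 0.85 ± 0.229 (edgeR adjusted p = 0.108). At P3 it was at 12.0, 13.1 and 11.9 RPKM in Digenic mice, against 10.7, 7.81 and 10.7 RPKM in WT mice, with a log2 change of 0.33 ± 0.140 (adjusted p = 0.263). The Digenic mice lay above the WT mice at both ages.

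At P3 a single collagen passed in edgeR, Col7a1 in Digenic against Pkhd1-/- mice. It was at 2.22, 1.89 and 1.22 RPKM in Digenic mice and 1.10, 1.09 and 0.996 RPKM in Pkhd1-/- mice, without overlap, with a log2 change of 0.73 ± 0.184 (adjusted p = 0.0493; 3.49% of all genes called, 2.65% as higher). The call held in 1 of the 6 fits that left out a mouse, and was lost with the replicate number as a block, with the length trend removed and with a sex term. All 3 Digenic mice of P3 are female and all 3 Pkhd1-/- mice male by their Xist and Y-linked transcripts, though the header of Pkhd1-/- P3 replicate 2 reads female; the header's sex went against these transcripts in 3 of the 36 libraries. Digenic against WT had 0 of 42 (2.70% of all genes, 7 unadjusted, DESeq2 0). Digenic against Pkd1-RC/RC had 0 (0.460%, 3 unadjusted, DESeq2 1) and Pkd1-RC/RC against WT 0 (0.0443%, 0 unadjusted, DESeq2 0). Pkhd1-/- against WT had 0 (0.0166%, 2 unadjusted, DESeq2 0) and the interaction 0 (0%, 4 unadjusted, DESeq2 0). Over all 18043 genes, the unadjusted counts in the same order were 2847, 1875, 805, 396 and 1457.

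The type IV chains of the mutants overlapped those of WT mice at P0 and P3. At P0 Col4a3 was at 4.93, 8.21 and 6.70 RPKM in Digenic, 6.85, 5.07 and 6.19 RPKM in Pkd1-RC/RC and 2.34, 4.77 and 7.34 RPKM in Pkhd1-/- mice. Col4a4 was at 10.528, 14.5 and 13.2 RPKM in Digenic, 12.8, 10.2 and 11.9 RPKM in Pkd1-RC/RC and 4.80, 10.2 and 13.2 RPKM in Pkhd1-/- mice. Col4a5 was at 20.1, 23.5 and 34.3 RPKM in Digenic, 27.2, 21.3 and 33.9 RPKM in Pkd1-RC/RC and 17.2, 32.4 and 24.5 RPKM in Pkhd1-/- mice. For each gene the 3 mutant groups overlapped each other and the WT mice. Col4a6 was at 1.72, 1.97 and 2.45 RPKM in Digenic, 2.28, 1.94 and 2.27 RPKM in Pkd1-RC/RC and 1.30, 2.64 and 2.23 RPKM in Pkhd1-/- mice. Col4a1 was at 372, 480.2 and 602 RPKM in Digenic, 403, 359.8 and 539 RPKM in Pkd1-RC/RC and 254, 493 and 411 RPKM in Pkhd1-/- mice. Col4a2 was at 250.2, 295 and 374 RPKM in Digenic, 262, 234 and 319.6 RPKM in Pkd1-RC/RC and 180.0, 293 and 265 RPKM in Pkhd1-/- mice. These chains overlapped in the same way, and Digenic replicate 3 had the highest Col4a1 of all 36 kidneys. At P3 Col4a3 was at 9.69, 11.5 and 7.78 RPKM in Digenic, 6.89, 7.97 and 8.77 RPKM in Pkd1-RC/RC and 5.38, 10.548 and 7.09 RPKM in Pkhd1-/- mice. Col4a4 was at 15.6, 17.9 and 12.7 RPKM in Digenic, 11.5, 13.1 and 14.6 RPKM in Pkd1-RC/RC and 9.97, 16.6 and 10.6 RPKM in Pkhd1-/- mice. Col4a5 was at 34.2, 35.8 and 31.3 RPKM in Digenic, 29.6, 31.4 and 33.2 RPKM in Pkd1-RC/RC and 25.7, 37.9 and 25.3 RPKM in Pkhd1-/- mice. No group was separate from the WT mice, and for Digenic against WT the log2 changes were 0.10 ± 0.248, 0.27 ± 0.205 and 0.10 ± 0.170. Col4a6 was at 3.05, 3.31 and 2.78 RPKM in Digenic, 2.52, 2.66 and 2.80 RPKM in Pkd1-RC/RC and 2.38, 2.95 and 2.34 RPKM in Pkhd1-/- mice. Col4a1 was at 429, 448 and 385 RPKM in Digenic, 396, 383 and 428 RPKM in Pkd1-RC/RC and 395, 391 and 366 RPKM in Pkhd1-/- mice. Col4a2 was at 249, 287 and 224 RPKM in Digenic, 236, 222 and 246 RPKM in Pkd1-RC/RC and 246, 215 and 225 RPKM in Pkhd1-/- mice. All mutant groups overlapped the WT mice in these chains too.

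The interstitial chains of the mutants likewise overlapped those of WT mice. At P0 Col1a1 was at 216, 178 and 242 RPKM in Digenic, 203, 279 and 234 RPKM in Pkd1-RC/RC and 253, 254 and 169 RPKM in Pkhd1-/- mice. Col1a2 was at 107, 109 and 147 RPKM in Digenic, 120.4, 144 and 137 RPKM in Pkd1-RC/RC and 134, 148 and 111 RPKM in Pkhd1-/- mice. Col3a1 was at 171, 174 and 259 RPKM in Digenic, 194, 251 and 249 RPKM in Pkd1-RC/RC and 226, 256 and 189 RPKM in Pkhd1-/- mice. At this age the mutant ranges overlapped those of WT mice given above. At P3 Col1a1 was at 159, 161 and 180.1 RPKM in Digenic, 240.1, 159.8 and 194 RPKM in Pkd1-RC/RC and 252, 143 and 195 RPKM in Pkhd1-/- mice. Col1a2 was at 109, 111 and 114 RPKM in Digenic, 149, 114 and 120.4 RPKM in Pkd1-RC/RC and 143, 110.0 and 109 RPKM in Pkhd1-/- mice. Col3a1 was at 192, 189.8 and 218 RPKM in Digenic, 250.4, 211 and 209 RPKM in Pkd1-RC/RC and 232, 219 and 187 RPKM in Pkhd1-/- mice. Each mutant range overlapped that of WT mice, and Digenic and Pkd1-RC/RC mice were separate for Col1a2.

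The change of the Digenic effect with age was tested directly, as Digenic minus WT at P12 less Digenic minus WT at P0. It passed for 5 of 42 collagens, 2 positive and 3 negative (of all genes, 5.22% positive and 3.57% negative, 8.79% together). Col6a4 had a difference of 1.71 ± 0.387 on the log2 scale (adjusted p = 0.00551) and Col12a1 one of 1.03 ± 0.274 (adjusted p = 0.0169). Col4a3 had -1.61 ± 0.403 (adjusted p = 0.0119), Col27a1 -1.72 ± 0.451 (adjusted p = 0.0159) and Col4a4 -1.15 ± 0.340 (adjusted p = 0.0321). For Col4a3 the Digenic log2 change was -1.13 ± 0.116 at P12, against 0.49 ± 0.338 at P0. Col4a3 passed in every alternative tried. The other 4 calls were lost without the libraries with adrenal transcripts, at 1.04 for Col6a4, 0.97 for Col12a1, -1.75 for Col27a1 and -1.18 for Col4a4 (lowest adjusted p = 0.0588), and Col4a4 kept its call in 5 of 12 fits that left out a mouse. Col6a4 was at 0.361, 0.482 and 0.394 RPKM in Digenic mice at P0, against 0.638, 0.664 and 0.319 RPKM in WT mice, and Col27a1 at 0.976, 1.31 and 0.542 RPKM in Digenic mice at P0, against 0.702, 0.757 and 0.511 RPKM in WT mice. Both genes overlapped at P0 and separated at P12.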

How the data were processed

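Kidney RNA of 36 mice was measured by paired-end sequencing with reads of 150 bases. The deposited table gives raw counts per gene, made by the authors with TopHat2, Bowtie and featureCounts on mm10, per the submitters' processing notes; edgeR is named there too. The pipeline was MAP-RSeq 2.1.0, per the series' design text. The 36 normalized per-sample columns and the authors' comparison columns were not used. In 2 columns the header goes against the sample's labels, which were used: Digenic P12 replicate 1 reads P3, and Pkd1-RC/RC P12 replicate 2 reads Pkhd1.

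From the counts, genes were filtered with filterByExpr, scaled by TMM and tested with edgeR 4.0.16 (glmQLFit, robust; R 4.3.3), with Benjamini-Hochberg adjusted p under 0.05 over all genes tested. Genotypes were compared in the 12 libraries of 1 age, and ages and the change of the Digenic effect in all 36. RPKM and CPM use library totals times TMM factors over all 36 libraries, with the deposited gene length. The adrenal and urothelial sums set against 20 and 150 CPM, and the adrenal sums printed, use library totals without these factors. Depth, at 51411240 to 80789299 counts, limits precision for the 11 genes under 1 RPKM. Class sums and ratios were compared by exact permutation. Gene positions are from GENCODE M21, which gives the deposited position for 39 of 42 genes, and promoters and starts from RefSeq.

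The alternatives were DESeq2 1.42.0, RLE scaling, no filter, a sex term and removal of a length trend (lowess in R, span 0.3). Others were a replicate block, another set of libraries in the fit, and each replicate left out. Libraries with adrenal markers above 20 CPM or urothelial markers above 150 CPM were also left out, chosen after seeing the data. The tests were tested on simulated data with the same spread set for every gene. Of 1.5-fold changes, 44.8% were recovered for Digenic against WT at P12 and 37.3% for WT P12 against WT P0. Of 2-fold changes, 98.5% and 97.0% were recovered. At that spread, a gene that did not pass may therefore still have changed by about 1.5-fold. Genes with a wider spread can miss the test at larger changes, which the simulation does not cover. Col2a1 in Digenic against WT at P12 had a log2 change of 1.45 ± 0.862 with RLE scaling and did not pass (edgeR adjusted p = 0.258). Same-numbered mice deviated together, every pair above 0.1, in 3 comparisons: Pkhd1-/- against WT at P12, Digenic against Pkd1-RC/RC at P0, and WT P12 against WT P3.

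Per-library values are given for Col1a1, Col1a2, Col3a1 and Col4a1 to Col4a6 and, in each comparison, for up to 4 called members per direction with the smallest adjusted p. Col17a1, Col22a1, Col6a1, Col6a2 and Col7a1 were in part named after their values were seen. The members and lists were chosen with earlier results of these data known. Some genes of these lists are counted but not reported by name here.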

Additional observations from a re-analysis of the deposited data

Results flagged for a closer look

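At P12 the Digenic change differed from the sum of both single-mutant changes, by the edgeR interaction test, for 11 of 42 collagens. That is 26.2% of the members, against 8.57% of all genes tested. The interaction term on the log2 scale was -0.88 for Col4a3, -0.48 for Col4a4, -0.53 for Col4a5 and -1.49 for Col27a1. It was 1.71 for Col12a1, 2.06 for Col6a4, 0.69 for Col6a1, 0.73 for Col6a2, 0.91 for Col7a1, 0.52 for Col18a1 and 2.39 for Col22a1. The terms of Col4a4, Col4a5, Col7a1 and Col27a1 lost the call when most single mice were left out.

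The Digenic effect also differed between P12 and P0 by a test of the difference itself for 5 of 42 collagens. That is 11.9% of the members against 8.79% of all genes, a share near the background. The difference was -1.61 for Col4a3, -1.15 for Col4a4 and -1.72 for Col27a1, and 1.71 for Col6a4 and 1.03 for Col12a1. Without the libraries with adrenal transcripts Col4a3 alone kept its call, and Col4a4 kept its call in 5 of 12 fits that left out a mouse.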

How the results depend on the processing

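Of 100 calls of a collagen over the comparisons, 46 passed in every alternative and 54 were lost in at least 1. Counts of collagens called moved by more than 1.5 times as follows, and the cause was not tested unless fewer mice entered the fit. DESeq2 called 2 for Digenic against WT at P0, 2 for Digenic against Pkhd1-/- at P0, 1 for Digenic against Pkd1-RC/RC at P3, 2 for Digenic against Pkhd1-/- at P3, 3 for Pkd1-RC/RC against WT at P12 and 17 for the interaction at P12. All 36 libraries in 1 fit gave 2 for Digenic against WT at P0, 2 for Digenic against Pkhd1-/- at P0, 6 for Digenic against WT at P12 and 4 for the interaction at P12. Without the libraries with adrenal transcripts there was 1 for Digenic against WT at P3, 1 for Digenic against Pkd1-RC/RC at P3, 17 for Digenic against WT at P12, where 1 Digenic mouse is assumed to vary like the other groups, 2 for Pkd1-RC/RC against WT at P12 and 6 for the interaction at P12. For Digenic against Pkhd1-/- at P3 the count of 1 became 0 with a sex term, 0 with the length trend removed and 2 without the most urothelial libraries. WT P3 against WT P0 gave 3 with those groups alone. Leaving out 1 mouse gave 0 to 1 for Digenic against WT at P0, 0 to 2 at P3 and 7 to 14 at P12, 0 to 1 for Digenic against Pkd1-RC/RC at P3, 0 to 2 for Digenic against Pkhd1-/- at P3, 0 to 1 for Pkd1-RC/RC against WT at P12, 3 to 13 for the interaction at P12, 4 to 10 for WT P3 against WT P0 and 3 to 8 for the change of the Digenic effect. Directions reversed only for values that had not passed. For Digenic against WT at P3, Col4a3 was -0.037 with a sex term, -0.074 without the most urothelial libraries, and -0.074 to 0.37 with 1 mouse left out. For Digenic against WT at P12 without the libraries with adrenal transcripts, Col1a1 was -0.62 and Col4a2 -0.24. With 1 mouse left out, Col1a1 ran from -0.23 to 0.25, Col1a2 from -0.30 to 0.10, Col3a1 from -0.44 to 0.047, Col4a1 from -0.23 to 0.021 and Col4a2 from -0.074 to 0.16. In Pkd1-RC/RC against WT at P12, Col4a4 ran from -0.17 to 0.029, and in Pkhd1-/- against WT at P12, Col4a3 from -0.14 to 0.085, Col4a4 from -0.050 to 0.022 and Col12a1 from -0.14 to 0.13. For WT P12 against WT P0, Col1a2 was 0.069 without the libraries with adrenal transcripts and -0.19 to 0.094 with 1 mouse left out, and Col3a1 was -0.030 with the length trend removed. With the replicate number as a block, Digenic against WT at P12 had 4 higher and 5 lower, Col4a6 among the lower at -0.60. Digenic against Pkhd1-/- at P3 had 0 with that block, and no other total of both directions moved by over 1.5 times. Same-numbered mice are known to share only a number, also in the 3 comparisons where they deviated together.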
